A study of Mus musculus with 24 samples.

Results

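Genes of melanosome transport and of melanocyte ion channels were examined in 7 mouse cell lines on 24 whole-genome expression arrays. The 7 genes were Rab38, Rab32, Rab27a, Mlph, Myo5a, Trpm1 and Kcnj13, of 45547 gene names on the array. Their 15 probes were found by matching the RefSeq transcript listed for a probe to the gene symbol, and none was removed as an outlier. The genes were selected from earlier results of these data: Trpm1 and Kcnj13 by their difference between DB#1 and M, Trpm1 also by DB#3 against M, and Rab38 by J365 against M0. Those values are therefore given as descriptions without a test.

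The lines came from a pair of mouse models of minimal residual disease under immunotherapy. B16F1-GFP-M (M, 3 arrays) is the parental melanoma line, derived from mouse B16-F1 melanoma and carrying green fluorescent protein. B16F1-GFP-D (D, 4 arrays) was recovered from a mouse after prolonged dormancy, and B16F1-GFP-DB#1 (4 arrays), B16F1-GFP-DB#2 (3 arrays) and B16F1-GFP-DB#3 (3 arrays) are second-generation dormant lines from the brain. M0 (4 arrays) and J365 (3 arrays) are labelled as myeloid cells at passage p20, and the labels do not say more about what separates them. All cells had been expanded in culture before RNA was taken, so each line is a cultured population and not tissue, and its arrays are not stated to be separate cultures. The p-values therefore measure the spread between arrays, which may be technical.

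Melanosomes are pigment organelles related to lysosomes. RAB38 and RAB32 are small GTPases that direct melanogenic enzymes to the maturing organelle. RAB27A on the mature melanosome binds melanophilin (MLPH), which recruits the actin motor myosin Va (MYO5A) and holds the organelle in the cell periphery. TRPM1, or melastatin, is a cation channel of melanocytes and retinal bipolar cells, and its gene is a classical target of the melanocyte transcription factor MITF. KCNJ13 is the inward rectifier potassium channel Kir7.1, best known from epithelia such as the retinal pigment epithelium and from fish pigment cells.

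Levels are the log2 of the background-corrected array intensity less the array's own 75th percentile, so a level of 0 is as bright as that percentile. They compare 1 probe between arrays and are not compared between genes. The 75th percentile was 271 to 484 intensity units on 23 arrays and 574 on D replicate 3. Arrays of different lines on 1 slide deviated alike from their line means (11 of 11 pairs with the same and 55 of 58 with different replicate numbers had r above 0.1), and the slide is not a term of the main fit. D replicate 3 also had 89.9% of probes well above background and D replicate 1 had 43.7%, against 47.5% to 53.8% on the other arrays. All 8 melanocyte markers (Tyr, Tyrp1, Dct, Pmel, Mlana, Gpnmb, Mitf and Sox10) were well above background on every melanoma array, with a mean level of 6.88 to 7.78 per array, against -4.45 to -4.08 on the myeloid arrays. Of these 8, 3 were well above background on every M0 array and 3 on every J365 array. The 12 blood cell markers were all well above background on every M0 and J365 array and averaged -4.34 to -2.15 on the melanoma arrays, highest on D replicate 3, where 10 of 12 passed. On every array of a line, 5 of 12 passed in M, 3 in D, 5 in DB#1, 5 in DB#2 and 4 in DB#3. Of 5 tested against M, 1 was called lower in D, 2 in DB#1, 1 in DB#2 and 1 in DB#3, and 0 were called higher. The 13 stroma and brain markers averaged -4.40 to -2.90 on the melanoma arrays. Of those tested against M, 3 were higher and 3 lower in D, 2 and 4 in DB#1, 5 and 3 in DB#2, and 3 and 4 in DB#3. Called higher were 1, 1, 2 and 1, and called lower 0 in each. Of all genes tested, 2.97%, 3.69%, 3.44% and 2.76% were called in these comparisons. Pdgfrb, a mesenchymal receptor named after its value was seen, was not well above background in M. In the main setting it was at least 2.53-fold higher in D, 4.56-fold in DB#1, 2.84-fold in DB#2 and 3.56-fold in DB#3. Its part in the results was not tested.

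The channel genes Trpm1 and Kcnj13 had the widest spread of line means between the melanoma lines, whereas the line means of each of the 5 transport genes lay within 1 log2 unit of each other. In their line means Trpm1 and Kcnj13 were highest in M, followed by DB#2. Kcnj13 was low in D, DB#1 and DB#3. Trpm1 was low in DB#1 (1.20) and DB#3 (1.22), and its mean in D (2.27) lay between these and DB#2 (3.46). Arrays of neighbouring lines overlapped for Trpm1. The smaller differences of Rab32 split M and DB#2 from DB#1, D and DB#3 without overlap. Mlph and Rab38 had overlapping arrays in all 5 melanoma lines. In bulk RNA of a culture, fewer cells expressing a gene and less RNA per cell cannot be told apart.

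**Figure D1:**
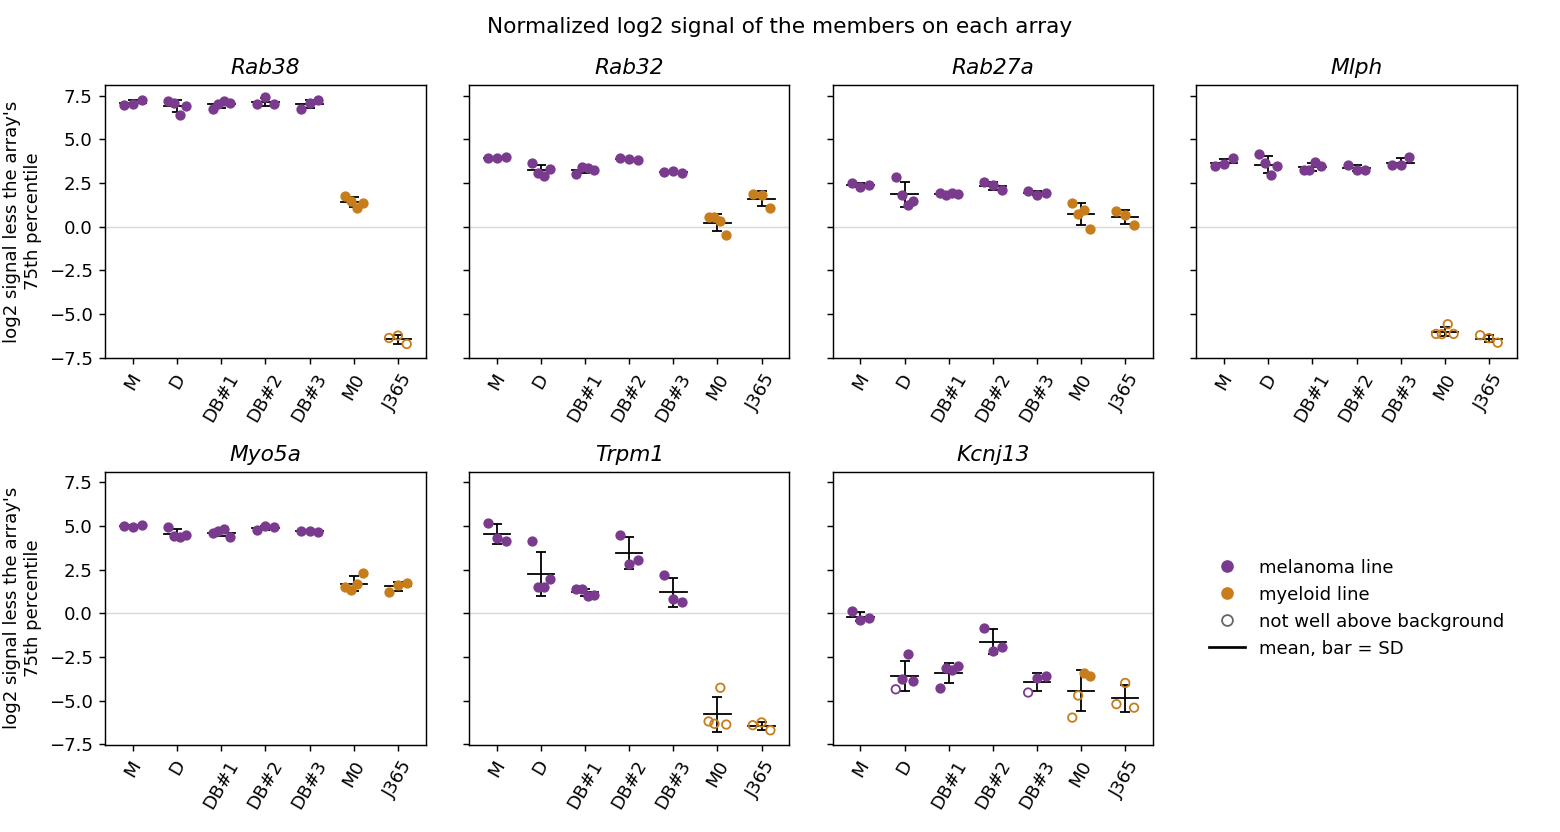
Level of the 7 genes on each of the 24 arrays, on the log2 scale relative to the array's 75th percentile (y axis), by cell line (x axis). Points are arrays, open where the probe was not well above background, and horizontal lines are line means with SD. Trpm1 spans 1.20 to 4.55 and Kcnj13 -3.94 to -0.18 between melanoma line means, while Rab38 spans 6.89 to 7.13.

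Trpm1 read 5.20, 4.33 and 4.13 on the M arrays and 4.11, 1.52, 1.49 and 1.95 on the D arrays. In the DB lines it read 1.37, 1.37, 0.99 and 1.07 in DB#1, 4.48, 2.82 and 3.08 in DB#2, and 2.17, 0.81 and 0.67 in DB#3. Every D, DB#1 and DB#3 array was below every M array, but D replicate 1 lay next to the lowest M array and DB#2 overlapped M. The line means ± SD were 4.55 ± 0.57 (n = 3) in M, 3.46 ± 0.89 (n = 3) in DB#2, 2.27 ± 1.25 (n = 4) in D, 1.22 ± 0.83 (n = 3) in DB#3 and 1.20 ± 0.20 (n = 4) in DB#1. Neighbours in this order overlapped throughout. These values are those of the brightest of its 6 probes, which was well above background on none of the 7 myeloid arrays.

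Kcnj13 read 0.13, -0.40 and -0.27 in M and -0.81, -2.15 and -1.93 in DB#2, and these groups did not overlap. It read -4.35, -3.77, -2.34 and -3.89 in D, -4.26, -3.12, -3.26 and -2.99 in DB#1, and -4.53, -3.68 and -3.59 in DB#3. D, DB#1 and DB#3 overlapped one another and all lay below DB#2. D replicate 1 and DB#3 replicate 3 were not well above background. The means ± SD were -0.18 ± 0.27 (n = 3) in M, -1.63 ± 0.72 (n = 3) in DB#2, -3.41 ± 0.58 (n = 4) in DB#1, -3.58 ± 0.87 (n = 4) in D and -3.94 ± 0.52 (n = 3) in DB#3. In the myeloid lines Kcnj13 was well above background on 2 of 4 M0 arrays and on none of the 3 J365 arrays.

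The promoter sequences of Trpm1 and Kcnj13 are shown because these members had the widest spread of line means between the melanoma lines. RefSeq start sites (assembly GRCm38.p6, each with 250 bases before and 50 after the start, 5′ to 3′ on the gene's strand) gave 8 promoters for 6 of the 7 members, and none was listed for Rab38. Capitals mark CATGTG or its reverse complement CACATG, and the palindrome CACGTG, the E-box forms that MITF and related factors can bind. These motifs do not overlap each other in the letters searched.
Trpm1, start 1, chr7:64153585-64153884, + strand: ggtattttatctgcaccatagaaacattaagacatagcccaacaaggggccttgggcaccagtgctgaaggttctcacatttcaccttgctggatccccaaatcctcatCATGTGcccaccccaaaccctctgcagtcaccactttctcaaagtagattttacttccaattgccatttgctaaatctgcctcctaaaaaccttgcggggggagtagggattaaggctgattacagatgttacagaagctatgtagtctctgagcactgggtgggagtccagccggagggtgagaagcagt
Trpm1, start 2, chr7:64185209-64185508, + strand: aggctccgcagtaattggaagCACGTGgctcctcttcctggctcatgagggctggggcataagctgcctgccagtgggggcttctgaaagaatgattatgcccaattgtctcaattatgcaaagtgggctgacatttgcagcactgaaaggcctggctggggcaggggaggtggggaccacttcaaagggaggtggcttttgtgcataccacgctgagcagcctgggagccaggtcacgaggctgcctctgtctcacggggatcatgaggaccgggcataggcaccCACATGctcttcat
Kcnj13, chr1:87394680-87394979, - strand: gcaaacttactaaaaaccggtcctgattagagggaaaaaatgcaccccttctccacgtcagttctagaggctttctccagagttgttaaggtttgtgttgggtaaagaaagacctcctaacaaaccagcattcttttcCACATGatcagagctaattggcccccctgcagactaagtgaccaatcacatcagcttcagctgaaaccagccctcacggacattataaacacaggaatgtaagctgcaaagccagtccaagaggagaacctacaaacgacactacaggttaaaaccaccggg
Trpm1 start 1 held 1 CATGTG, Trpm1 start 2 held 1 CACGTG and 1 CACATG, and Kcnj13 held 1 CACATG. Of the other members, Mlph and 1 of the 2 Rab27a starts each held 1 CACGTG, while Myo5a, Rab32 and the other Rab27a start held neither. Among 32851 promoters of this length, 14.2% held CATGTG or CACATG, 7.15% held CACGTG and 20.4% held either. A match describes the letters of the window and not binding.

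The comparison of D with M asks how the dormant line differed from its parental line. Both channel genes fell. Kcnj13 was lower by 3.40 ± 0.56 on the log2 scale (SE, limma, Benjamini-Hochberg adjusted p = 0.000738), a 10.6-fold difference. Trpm1 was lower by 2.29 ± 0.59 (adjusted p = 0.0369), a 4.88-fold difference. All 7 members had a mean below M, except that Mlph turned to 0.06 with no scaling between arrays, to 0.18 with the mean of its probes and to 0.08 without D replicate 3. The test passed 2 of 7, against 2.97% of all genes tested. The median difference of the members was -0.54, against -0.01 over all genes tested. M is also one side of the contrasts that chose these genes, so neither p is independent of that choice.

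The Kcnj13 difference was called under all 35 alternative settings, between -3.87 and -2.05, the smallest with normexp background correction, and lay between -4.01 and -1.94 within the 3 slides. The Trpm1 difference lay between -3.25 and -1.32 within slides and its call rested on single arrays: it was lost when any of M replicates 1, 2 and 3 (adjusted p = 0.196, 0.0966 and 0.0831) or D replicates 2, 3 and 4 (adjusted p = 0.112, 0.0952 and 0.0901) was left out, and was -2.90 (adjusted p = 0.00142) without D replicate 1. With the replicate number as a block it was -2.15 (adjusted p = 0.0692). The call was also lost with no scaling between arrays (adjusted p = 0.0825) and with no filter on dim probes (adjusted p = 0.096). It was lost too with only the D and M arrays (adjusted p = 0.282) and with eBayes over all rows (adjusted p = 0.0522). Trpm1 was called under 24 of the 35 alternatives.

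Rab32 gave 3.92, 3.94 and 3.96 on the M arrays and 3.65, 3.06, 2.89 and 3.28 on the D arrays. It gave 3.02, 3.41, 3.38 and 3.26 in DB#1, 3.94, 3.85 and 3.83 in DB#2, and 3.11, 3.18 and 3.08 in DB#3. The melanoma lines thus formed an upper set of M and DB#2 and a lower set of DB#1, D and DB#3 that did not overlap it. The differences from M did not pass the test: they were -0.72 ± 0.23 for D (SE, adjusted p = 0.115), -0.67 ± 0.23 for DB#1 (adjusted p = 0.135) and -0.82 ± 0.24 for DB#3 (adjusted p = 0.0929). With the slide as a block they did pass, at -0.74 (adjusted p = 0.0323), -0.70 (adjusted p = 0.0449) and -0.82 (adjusted p = 0.0316). Leaving out M0 replicate 4, an array of neither side, also brought all of them past the threshold (adjusted p = 0.0332, 0.042 and 0.0215), as leaving out D replicate 1 did for D (-0.86, adjusted p = 0.0387).

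No gene of the machinery that holds melanosomes at the periphery passed the test between D and M. Rab27a ranged from 2.28 to 2.48 in M and from 1.22 to 2.82 in D, which overlapped, and its difference was -0.54 ± 0.31 (SE, adjusted p = 0.579). Myo5a ranged from 4.96 to 5.07 in M and from 4.36 to 4.94 in D, a difference of -0.45 ± 0.20 (adjusted p = 0.34) between groups that did not overlap. Mlph, the adaptor between them, ranged from 3.50 to 3.90 in M and from 2.93 to 4.15 in D, with a difference of -0.12 ± 0.22 (adjusted p = 0.941). Rab38 ranged from 6.95 to 7.25 in M and from 6.39 to 7.21 in D (difference -0.19 ± 0.20, adjusted p = 0.87). The highest Rab27a and Mlph values in D were those of replicate 1 and the lowest those of replicate 3.

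The comparisons of the brain-derived lines with M ask whether these second-generation lines differed from the parental line in the same genes. In DB#1 and DB#3 the values that chose Trpm1 and Kcnj13 are descriptions. Trpm1 differed from M by -3.35 on the log2 scale in DB#1 (10.2-fold lower) and by -3.34 in DB#3 (10.1-fold lower). Kcnj13 differed by -3.23 in DB#1 (9.35-fold lower). The Kcnj13 difference between DB#3 and M did not choose the gene, although it shares the M arrays: it fell by 3.75 ± 0.59 (SE, limma, adjusted p = 0.00043), called under all 35 alternatives between -4.34 and -2.16, the smallest with normexp background correction. DB#3 replicate 3 was not well above background, so the size of the difference is less certain than its call. All 7 members had a mean below M in both lines, though Mlph was above M with the mean of its probes (0.23 in DB#1 and 0.27 in DB#3) and Rab38 and Mlph lay near 0.

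In each of DB#1 and DB#3, 2 of 7 members passed the threshold, against 3.69% of all genes tested in DB#1 and 2.76% in DB#3, and nothing is read from these counts because the contrasts chose members. The other members differed from M by less than 1 log2 unit. Rab27a ranged from 1.83 to 1.94 in DB#1 and from 1.81 to 2.02 in DB#3, below the M arrays, with differences of -0.49 ± 0.31 and -0.47 ± 0.34 (SE, adjusted p = 0.617 and 0.834). Myo5a also lay below the M arrays, at 4.34 to 4.81 in DB#1 and 4.66 to 4.72 in DB#3, with differences of -0.39 ± 0.20 and -0.31 ± 0.21 (adjusted p = 0.433 and 0.799). Mlph and Rab38 overlapped M in both lines.

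DB#2 stood closer to M. No member passed the test against M (0 of 7 in limma, against 3.44% of all genes tested), and 1 member, Kcnj13, had an unadjusted p below 0.05. Kcnj13 differed by -1.45 ± 0.60 (SE, adjusted p = 0.284) and Trpm1 by -1.09 ± 0.63 (adjusted p = 0.573). With normexp background correction Kcnj13 did pass (adjusted p = 0.0022). Rab32, Rab27a, Myo5a and Rab38 differed from M by -0.12 to 0.05, and Mlph by -0.32 ± 0.24 (adjusted p = 0.761). A p above the threshold does not show that DB#2 equals M.

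**Figure D2:**
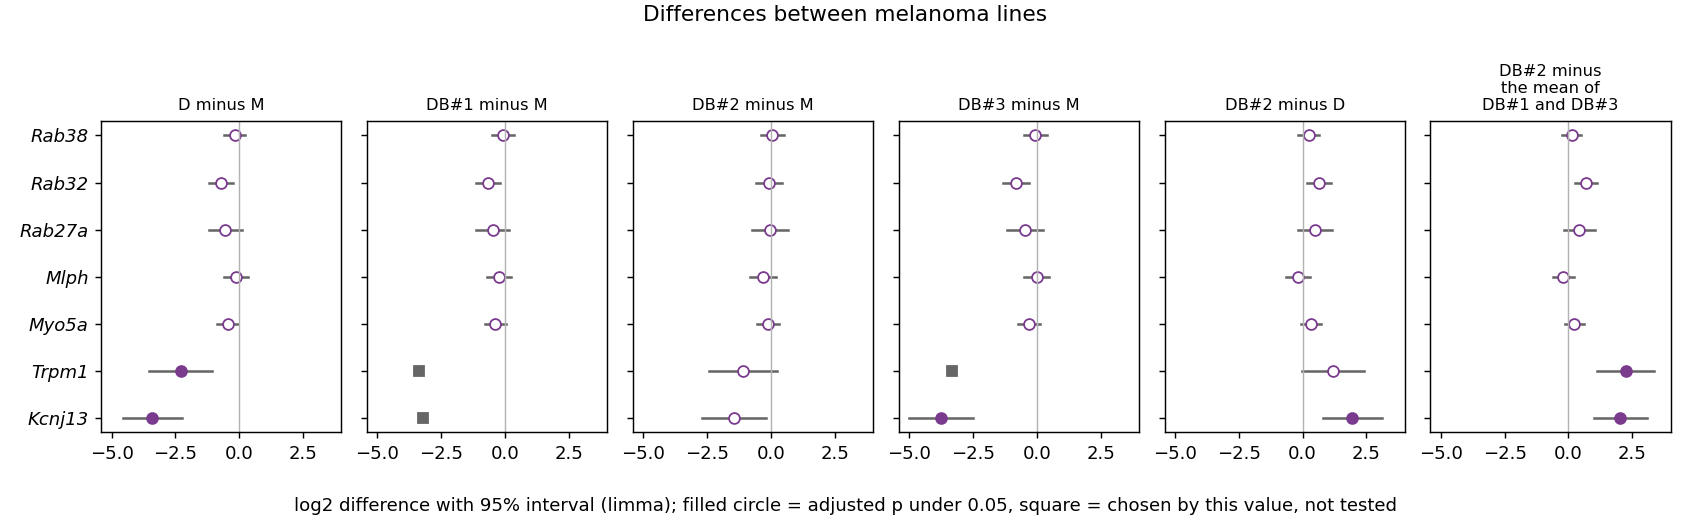
Log2 difference of each member in the comparisons between lines (x axis, log2 units) with its 95% confidence interval from limma. Squares without a test mark the values that chose a member. Trpm1 and Kcnj13 lie far below 0 in D, DB#1 and DB#3 against M, and Rab32 lies at -0.82 to -0.67 in the same comparisons.

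Differences among the dormant lines were tested directly. DB#2 held more Trpm1 and Kcnj13 RNA than the other brain-derived lines: against the mean of DB#1 and DB#3, Trpm1 was higher by 2.25 ± 0.54 on the log2 scale (SE, limma, adjusted p = 0.0116) and Kcnj13 by 2.04 ± 0.51 (adjusted p = 0.0153), that is 4.75-fold and 4.11-fold. With normexp background correction the difference was 2.19 for Trpm1 and 0.94 for Kcnj13. Every DB#2 array exceeded every DB#1 and DB#3 array for both genes. These were 2 of 7 members called, against 7.14% of all genes tested, and the DB#1 and DB#3 arrays are those that chose the genes. Rab32 was higher by 0.68 ± 0.21 without passing (adjusted p = 0.0522), and did pass under 13 of 35 alternatives. Both calls rested on DB#2 replicate 1: without it Trpm1 was 1.74 higher (adjusted p = 0.123) and Kcnj13 1.63 higher (adjusted p = 0.134). Within the 3 slides the differences were 1.38 to 3.39 for Trpm1 and 1.27 to 3.16 for Kcnj13.

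Against D, which did not choose any member, Kcnj13 rose in DB#2 by 1.95 ± 0.56 (SE, adjusted p = 0.0391), and by 0.91 with normexp background correction. D replicate 1 was not well above background, and the difference lay between 1.53 and 1.95 within slides. It was 1 of 7 members called, against 6.34% of all genes tested, and 2 members had an unadjusted p below 0.05. Trpm1 was higher by 1.19 ± 0.59 (adjusted p = 0.31) and Rab32 by 0.65 ± 0.23 (adjusted p = 0.104, or 0.68 with adjusted p = 0.0322 with the slide as a block). Kcnj13 lost its call without D replicate 1, 2 or 4 (adjusted p = 0.0803, 0.0862 and 0.0908) and without DB#2 replicate 1, 2 or 3 (adjusted p = 0.227, 0.062 and 0.0854), and leaving out D replicate 1 brought Trpm1 (1.81, adjusted p = 0.0306) and Rab32 (0.79, adjusted p = 0.0366) past the threshold.

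No member passed the test between DB#1 or DB#3 and D at its brightest probe. In limma 0 of 7 were called for DB#1 against D (0.475% of all genes tested) and 0 of 6 tested for DB#3 against D (0.369%), with 0 at an unadjusted p below 0.05 in both. Trpm1 was 1.06 ± 0.55 lower than D in DB#1 (SE, 95% confidence interval -2.20 to 0.08) and 1.05 ± 0.59 lower in DB#3 (-2.28 to 0.18). Kcnj13 differed by 0.18 ± 0.51 in DB#1 (-0.90 to 1.25) and was not tested in DB#3, since neither line had it well above background on every array. The transport genes differed from D by -0.12 to 0.14 in both lines. With the mean over all probes of a gene in place of its brightest probe, Trpm1 was called lower than D in both lines (adjusted p = 0.0384 in DB#1 and 0.0266 in DB#3). All 6 Trpm1 probes were lower than D in both lines. Of 5 tested, 1 was called in each, A_55_P2037997 in DB#1 (-1.96, adjusted p = 0.0095) and A_55_P2740906 in DB#3 (-1.52, adjusted p = 0.0458). Of all probes tested, 124 of 26513 were called in DB#1 against D and 92 of 26364 in DB#3 against D. The DB#1 and DB#3 arrays are among those that chose Trpm1.

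Trpm1 was measured by 6 probes, and 5 of them gave M the highest level, then DB#2 and D, with DB#1 and DB#3 lowest. For these 5 the difference from M was -2.29 to -1.29 in D, with 3 of 5 called, -3.38 to -2.62 in DB#1, -1.09 to -0.68 in DB#2 and -3.34 to -2.96 in DB#3. Against the mean of DB#1 and DB#3 they were 1.87 to 2.25 higher in DB#2, and all 5 were called. Of all probes tested, 765 of 26494 were called in D against M and 1916 of 27831 in DB#2 against that mean. The M, DB#1 and DB#3 arrays chose Trpm1, and probes of 1 gene on the same arrays are not independent. The counts of called probes therefore add no separate evidence. The sixth, probe A_55_P2043782, differed from M by -0.07 ± 0.67 in D (SE, adjusted p = 0.989), -0.64 in DB#1, -0.87 in DB#2 and -1.16 in DB#3. Its D arrays read -2.96, -2.59, 0.26 and -1.24 against -1.80, -1.08 and -1.79 in M, so the small difference in D rested on D replicate 3, the array with the most probes well above background. It was also the probe that ran against the others between cell types. It read 2.87 ± 1.31 in M0 (SD, n = 4) and 2.54 ± 0.43 in J365 (n = 3) and was well above background on every myeloid array, whereas the other 5 probes were well above background on none. Against M0 it was 4.43 lower in M (adjusted p = 9.43e-06), while the other 5 were 4.02 to 10.33 higher. What RNA it measured in the myeloid lines was not tested.

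**Figure D3:**
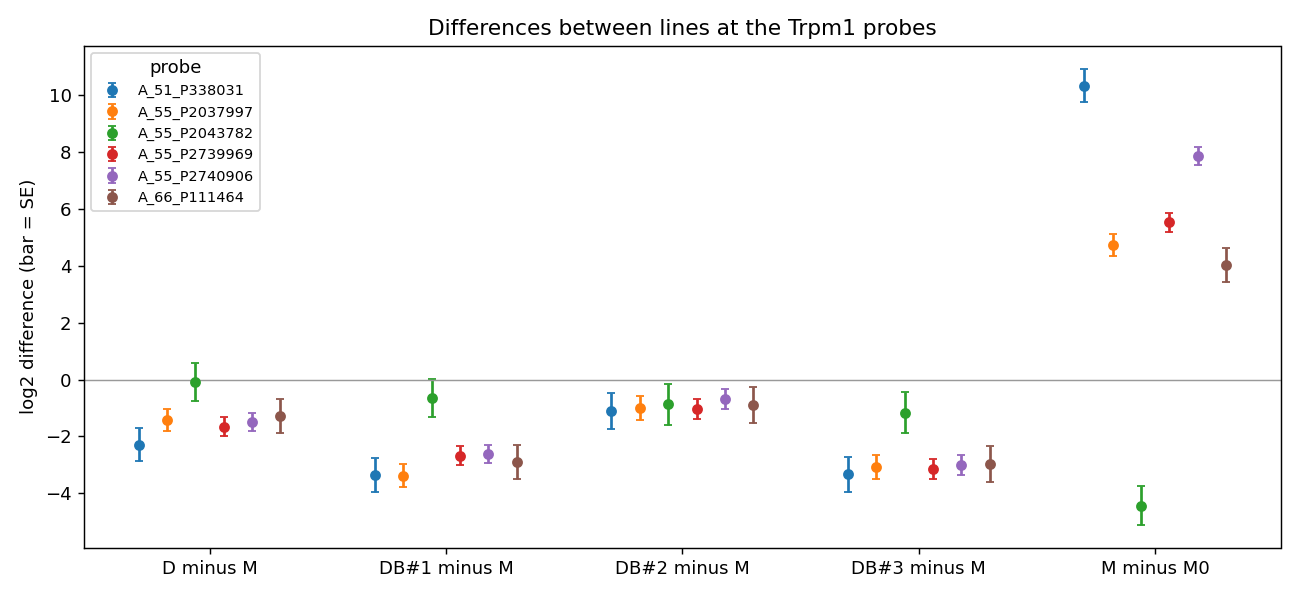
Difference of each of the 6 Trpm1 probes (y axis, log2 units) between D, DB#1, DB#2 or DB#3 and M, and between M and M0 (x axis). Bars are SE. In D, DB#1 and DB#3 5 probes lie between -3.38 and -1.29 and probe A_55_P2043782 between -1.16 and -0.07, and between M and M0 that probe lies at -4.43 where the others lie at 4.02 to 10.33.

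Mlph was measured by a pair of probes that differed in sign. The brighter probe was 0.12 lower than M in D and 0.24 lower in DB#1, and the other was 0.48 ± 0.20 higher in D (SE, adjusted p = 0.304) and 0.70 ± 0.20 higher in DB#1 (adjusted p = 0.067). No direction of Mlph between the melanoma lines is therefore given. Rab27a and Myo5a, also with a pair each, were lower than M with both probes in D, DB#1, DB#2 and DB#3. Rab38, Rab32 and Kcnj13 had 1 probe each.

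In the myeloid lines Rab32, Rab27a and Myo5a were well above background on every array, and Mlph and the brightest Trpm1 probe on none. Rab38 read 1.74, 1.46, 1.07 and 1.37 on the M0 arrays and was not well above background on any J365 array, at -6.37, -6.23 and -6.72. This value chose the gene and is a description: it was at least 49.8-fold lower in J365, a bound that sets each J365 array to the dimmest probe it detected well above background. The bound holds for the main setting only: with normexp background correction the log2 difference was -3.91, against a bound of -5.64. Rab32 went the other way, with 0.53, 0.56, 0.30 and -0.49 in M0 and 1.89, 1.79 and 1.09 in J365. The groups did not overlap, and Rab32 rose by 1.36 ± 0.23 (SE, limma, adjusted p = 0.0013), a 2.57-fold difference that lay between 1.18 and 1.33 within slides. The close relatives Rab38 and Rab32 were thus higher in opposite lines.

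Rab27a and Myo5a did not differ between J365 and M0, at -0.17 ± 0.32 (SE, adjusted p = 0.993) and -0.16 ± 0.20 (adjusted p = 0.988). Mlph, Kcnj13 and the brightest Trpm1 probe were not tested, since neither line had them well above background on every array. The Trpm1 probe that both myeloid lines did read, A_55_P2043782, differed by -0.33 ± 0.68 (SE, adjusted p = 0.97). Of the 3 other members tested Rab32 alone passed, and 1.47% of all genes tested were called. The Rab32 call was lost when the fit held only the M0 and J365 arrays (adjusted p = 0.138).

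The D minus M and J365 minus M0 differences were set against each other for every gene. Rab32 differed between these contrasts by -2.08 ± 0.32 on the log2 scale (SE, adjusted p = 0.000555), being lower in D than M and higher in J365 than M0. This value was not recomputed under the alternatives. Alone, D minus M did not pass (adjusted p = 0.115), and J365 minus M0 lost its call with only those arrays in the fit (adjusted p = 0.138). For Rab38 the difference between the contrasts was 7.67 and holds the contrast that chose it. Of all genes tested 2.08% were called. Kcnj13 gave -2.96 ± 0.79 (adjusted p = 0.0601) and Trpm1 -1.62 ± 0.84 (adjusted p = 0.608). For both genes J365 minus M0 was not tested alone, since neither myeloid line had the probe well above background on every array. The M arrays are also a side of the contrasts that chose them, so nothing is read from these p-values.

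M was set against the myeloid line M0 to see which members mark the melanoma cells. All 7 were higher in M than in M0, and all 7 passed the test under every alternative, where 58.5% of all genes tested passed and 27.7% were called higher. The M arrays are a side of the contrasts that chose Trpm1 and Kcnj13, and the M0 arrays of the contrast that chose Rab38. The p-values of these genes are therefore not independent of that choice. Trpm1, Mlph and Kcnj13 met the filter for testing through M alone. At their brightest probes Trpm1 was at least 399-fold and Mlph at least 216-fold higher, with M0 not well above background there, while Trpm1 probe A_55_P2043782 was lower in M, as given above. The bounds of Trpm1 and Mlph hold for the main setting only. With normexp background correction the log2 difference was 6.79 for Trpm1 and 5.83 for Mlph, against bounds of 8.64 and 7.76. Rab38 was 50.7-fold higher (5.66 ± 0.20 log2, SE, adjusted p = 8.56e-16), Rab32 13.1-fold (3.71 ± 0.23, adjusted p = 1.17e-11) and Myo5a 9.92-fold (3.31 ± 0.20, adjusted p = 6.1e-12). The dimmer Myo5a probe gave a smaller log2 difference of 1.96. Kcnj13 was higher by 4.24 ± 0.56 (adjusted p = 1.53e-06), but only 2 of 4 M0 arrays had it well above background, and with normexp the difference was 2.09. Rab27a, which blood cells also use in granule secretion, differed least, at 3.15-fold (1.65 ± 0.32, adjusted p = 0.000134).

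Genes working beside the members were examined as lists chosen with earlier results known. The 8 melanocyte markers, which include Mitf, were not called in any comparison between melanoma lines: in limma 0 of 8 passed in D, DB#1, DB#2 or DB#3 against M, with 0 at an unadjusted p below 0.05 in the first 3 and 1 in DB#3. Of all genes tested against M, 2.97% were called in D, 3.69% in DB#1, 3.44% in DB#2 and 2.76% in DB#3. At such shares a count of 0 of 8 does not show that the markers were unchanged. The same shares apply to the list counts against M below. Their median differences from M were -0.13 in D, 0.04 in DB#1, 0.06 in DB#2 and 0.02 in DB#3. The fall of Trpm1 and Kcnj13 in D thus stood beside pigment enzyme and Mitf RNA whose differences did not pass.

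Regulators and effectors of RAB27 and of the RAB32 and RAB38 pair (20 genes, 16 tested) held 0 called genes in D, DB#1 and DB#3 against M in limma, with 1, 2 and 3 at an unadjusted p below 0.05. In DB#2 1 of 16 was called, Sgsm2, a GTPase-activating protein of RAB32 and RAB38, named after its value was seen: it was 0.58 lower than M (adjusted p = 0.0367) and 0.69 lower than the mean of DB#1 and DB#3 (adjusted p = 0.00164). Cargo sorting genes (BLOC, HPS, AP-3, AP-1 and HOPS subunits, 34 tested) held 0 called genes in D, DB#1, DB#2 and DB#3 against M, with 4, 4, 4 and 3 at an unadjusted p below 0.05.

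Among 13 other RAB genes tested, 1 was called in D against M: Rab5b, a GTPase of early endosomes, fell by 1.06 ± 0.16 (SE, adjusted p = 0.00033). Rab5b was also the gene called in DB#1 (-0.88, adjusted p = 0.00165) and in DB#3 (-0.98, adjusted p = 0.00133) against M. Rab17 was higher in DB#2 than in D by 1.30 ± 0.31 (adjusted p = 0.0132). It was also higher in DB#1 than in D by 1.29 ± 0.29 (adjusted p = 0.0496), called under 4 of 35 alternatives. Motors and tethers held 1 called gene of 12 in D against M, Rilpl2 at -0.64 (adjusted p = 0.00883), named after its value was seen. They held 0 of 12 in DB#1, DB#2 and DB#3 against M, with 2, 1 and 0 at an unadjusted p below 0.05. Mfsd12, a melanosomal and lysosomal transporter, was higher in DB#2 than in the mean of DB#1 and DB#3 by 1.47 ± 0.41 (adjusted p = 0.0334), called under 26 of 35 alternatives between 0.32 and 1.69. It was one of 3 of 14 melanosome channel and transporter genes called there, against 7.14% of all genes tested. Against M, 0 of the 13 or 14 tested in this list passed in each line, with 2 in D, 1 in DB#1, 1 in DB#2 and 2 in DB#3 at an unadjusted p below 0.05.

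The relatives of the channel genes were mostly dim. Of 21 other Trpm and Kcnj genes 5 or 6 were tested between melanoma lines, and none was called in D, DB#1 or DB#3 against M in limma, with 0, 1 and 0 at an unadjusted p below 0.05. Kcnj4, another inward rectifier, was lower in DB#2 than in the other lines, with differences of -1.93 ± 0.37 from M, -2.34 ± 0.34 from D and -2.07 ± 0.31 from the mean of DB#1 and DB#3 (SE), each called under all 35 alternatives. Kcnj13 was thus higher in DB#2 than in the other DB lines where Kcnj4 was lower. Kcnj12 was 2.16 ± 0.60 higher in DB#2 than in that mean (adjusted p = 0.0315), called under 26 of 35 alternatives between 0.35 and 2.54.

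Melanocyte regulators held 16 genes, and 12 or 13 were tested. Ppargc1a, a coactivator of transcription, rose in DB#2 by 3.38 ± 0.38 against M, by 2.93 ± 0.36 against D and by 2.38 ± 0.33 against the mean of DB#1 and DB#3 (SE), and was called under all 35 alternatives in each. Lef1, a factor of the Wnt pathway, was higher than M in DB#1 by 1.49 ± 0.40 and in DB#3 by 1.60 ± 0.43, called under 22 and 9 of the 35 alternatives. Its difference between DB#2 and the mean of DB#1 and DB#3 was -1.62 ± 0.36, called under all 35. Over the alternatives these differences were 0.41 to 1.87, 0.50 to 1.98 and -1.70 to -0.67. Lef1 was dim, with mean levels of -4.25 in M, -2.76 in DB#1 and -2.66 in DB#3, so the sizes are uncertain. In D 0 of 12 regulators were called in limma, with 1 at an unadjusted p below 0.05.

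Between M and M0 the same lists held many differences. Among the transporters Slc45a2 was at least 1241-fold and Gpr143 at least 515-fold higher in M, and Oca2 at least 95.7-fold, all pigment cell genes. The tethers Mreg and Fmn1, of which melanoregulin acts on melanosome transfer and formin 1 on actin, were at least 112-fold and 59-fold higher. Among RAB27 effectors Sytl2 and Sytl4 were higher in M (at least 74.5-fold and 10.3-fold), whereas Sytl3 (at least 218-fold), Unc13d (75.8-fold) and Sytl1 (19.7-fold) were lower, and Rab27b was at least 22.1-fold lower. In J365 against M0, Kcnj10 was at least 3.89-fold lower (adjusted p = 2.89e-05) and Mitf 2.28-fold higher (adjusted p = 0.0477, called under 10 of 35 alternatives). The folds given as at least hold for the main setting only. Over the alternatives the smallest log2 difference was 8.69 for Slc45a2 (bound 10.28), 5.01 for Mreg (bound 6.81) and -1.28 for Kcnj10 in J365 against M0 (bound -1.96). The lists of sorting genes, motors, RAB regulators, other RAB genes and transporters held 0 called genes in J365 against M0 in limma, with 3, 1, 0, 1 and 0 at an unadjusted p below 0.05. Of all genes tested 1.47% were called there.

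**Figure D4:**
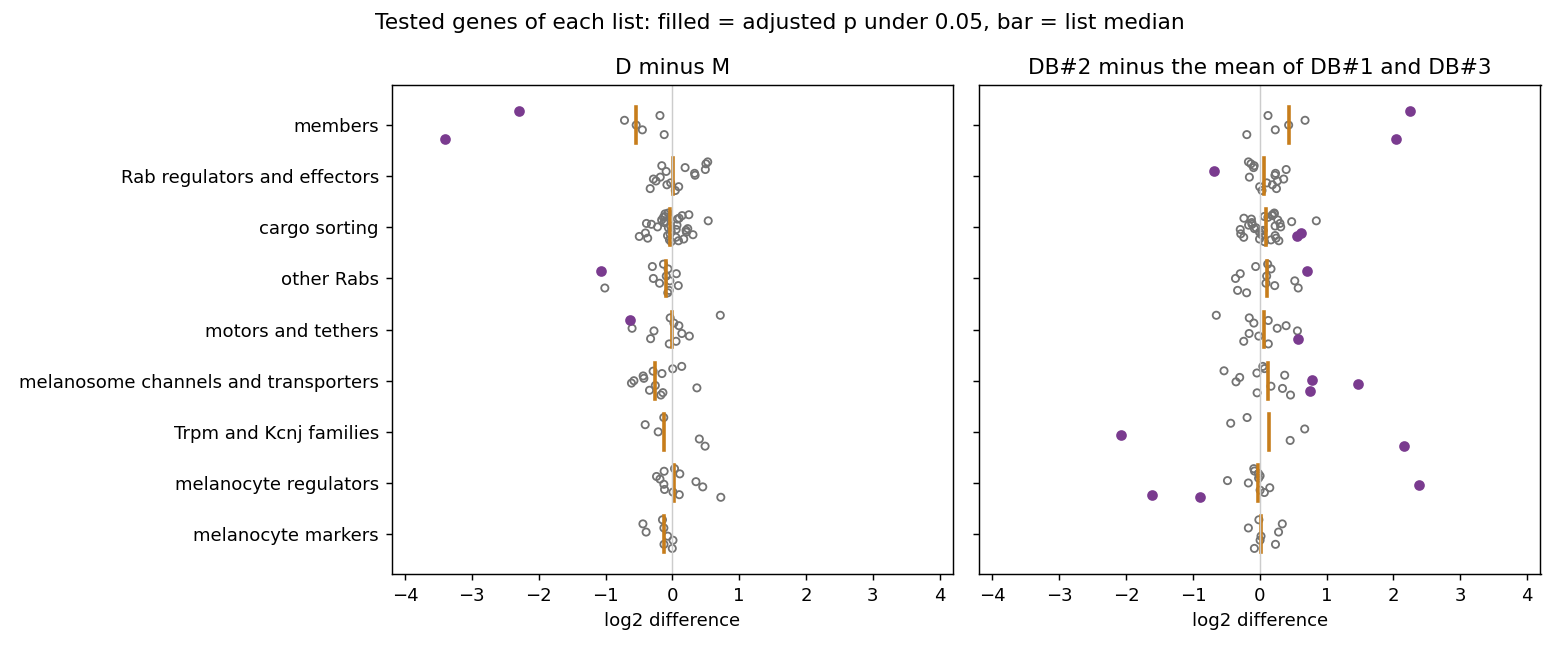
Log2 differences (x axis, log2 units) of the tested members and genes of the pathway, regulator and melanocyte marker lists (y axis) in D minus M and in DB#2 minus the mean of DB#1 and DB#3. Each point is a gene, filled where called, and bars are list medians. In D minus M the filled points are Kcnj13, Trpm1, Rab5b and Rilpl2, and no melanocyte marker is filled in either panel.

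Patterns across the 17 melanoma arrays were compared by Pearson's r, as a description, since arrays share lines and slides. Among the members, Rab32 and Trpm1 were most alike (r = 0.86), followed by Rab32 and Myo5a (r = 0.82), while Mlph and Kcnj13 were not related (r = -0.08). Trpm1 and Kcnj13 had r = 0.72. Of 13225 other genes, Lrp11 was most like Trpm1 (r = 0.96, and 0.97 with slide means removed), followed by Gm1993 and Gm10639. Nrk, Lbhd2 and Syne4 were most like Kcnj13 (r = 0.90, 0.90 and 0.89). Gm10639, Ropn1l and Plpp2 were most like Rab32 (r = 0.95, 0.93 and 0.93), and Ift27, Slc39a13 and Tor1aip1 most like Rab38 (r = 0.95, 0.93 and 0.93). Ncoa7, E2f5 and Procr followed Rab27a (r = 0.96, 0.96 and 0.95), Sod1, Atp6v0c and Ubl7 followed Mlph (r = 0.93, 0.92 and 0.92), and B4galt1, Ppm1h and C2 followed Myo5a (r = 0.91, 0.90 and 0.90).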

How the data were processed

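The authors labelled RNA with Cy3, hybridised it to 1-colour Agilent arrays and deposited the scanner output; per the labels and file headers Agilent Feature Extraction 10.7.3.1 made the intensity values used here, which are background-corrected but not scaled between arrays. The deposited series table equals them (1423320 of 1423320 values). Arrays come from 3 slides, and no array pair was identical. Log2 intensity less each array's 75th percentile over 56488 probes was analysed after removing control spots and 117 probes flagged as outliers. RefSeq accessions named 32917 probes (22881 symbols, assembly GRCm38.p6), and the brightest probe stood for a gene. limma 3.58.1 in R 4.3.3 fitted 1 term per line over 24 arrays (17 residual degrees of freedom). A gene was tested if well above background on every array of at least 1 line compared, and eBayes and Benjamini-Hochberg used the genes tested (called: adjusted p below 0.05). On simulated data for D against M the fit recovered 183 of 200 changed genes. Recovery depends on the size of the planted change, so it does not measure the power for the real differences. The text names the members, list genes called with a log2 difference of at least 1 (at most 4 per list, comparison and direction) and the 3 genes most like each member; others are marked as named after their values were seen. Members and lists were chosen with earlier results of these data known. Normexp used the median spot signal. Alternatives are in the closing section. The number of arrays limits the precision.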

Additional observations from a re-analysis of the deposited data

Results flagged for a closer look

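In 21 groups of 4 arrays (7 members in D, DB#1 and M0) the array farthest from the others was compared with the group's range, a check that chance trips in about 1 of 20 groups. M0 replicate 3 was highest for Mlph (-5.59, nearest other array -6.14) and for Trpm1 (-4.26, nearest other array -6.19). The brightest probe of each gene, which these values are, was not well above background on that array.

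DB#2 differed from the mean of DB#1 and DB#3 in Trpm1 by 2.25 (limma, adjusted p = 0.0116) and in Kcnj13 by 2.04 (adjusted p = 0.0153) on the log2 scale. Every array of DB#2 was higher than every array of the other DB lines for both genes. Both calls were lost without DB#2 replicate 1, and the DB#1 and DB#3 arrays are those that chose the genes.

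Rab32 differed between D minus M and J365 minus M0 by -2.08 (adjusted p = 0.000555). It was lower in all 4 D arrays than in all 3 M arrays and higher in all 3 J365 arrays than in all 4 M0 arrays. The D minus M difference alone did not pass the test, and the difference between the contrasts was not recomputed under the alternatives.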

How the results depend on the processing

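Each member's difference was recomputed under 35 alternatives in 10 comparisons, 2450 values in all, including those untested because they chose a member: 27 lost a call, 40 gained one, 18 that were not called moved by more than the spread between arrays, 2365 did none of these, and none of the called values reversed. The number of members called in D against M (2) was 1 with no scaling between arrays, no filter on dim probes, only the arrays of the lines compared, or eBayes over all rows (an alternative added after seeing the data), 3 with the slide block, and 1 to 3 with single arrays left out. In DB#1 against M (2) it was 4 with only the arrays compared, 3 with the slide block, the replicate block or the percentile over detected probes and 2 to 3 with arrays left out, in DB#2 against M (0) it was 1 with normexp, in DB#3 against M (2) 1 with the replicate block, 3 with quantile normalization, the percentile over detected probes, no scaling, the slide block or only the arrays compared, and 2 to 3 with arrays left out. In DB#2 against D (1) it was 0 with the percentile over detected probes, no dim filter, only the arrays compared or eBayes over all rows, 2 with the slide block or the replicate block, and 0 to 2 with arrays left out. DB#1 and DB#3 against D (0) each gave 1 with the mean over all probes. J365 against M0 (2) gave 1 with only the arrays compared, and DB#2 against the mean of DB#1 and DB#3 (2) gave 4 with no scaling or only the arrays compared and 0 to 3 with arrays left out; M against M0 gave 7 throughout. The cause was not tested.

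Replicate numbers in the labels were not taken as pairs: of 49 same-numbered pairs of different lines 23 had deviations correlated above 0.1 (11 of 11 on the same slide and 12 of 38 on different slides), and the unnumbered M0 and J365 arrays had a level of their own. With that replicate block Trpm1 lost its call in D against M (-2.15, adjusted p = 0.0692), DB#3 against M (-2.78, adjusted p = 0.0928) and DB#2 against the mean of DB#1 and DB#3 (1.90, adjusted p = 0.0806). With no scaling, the median difference of all genes was 0.17 in D against M (-0.01 in the main setting) and 0.25 in DB#2 against M (0.02). Counts over all genes ranged over the alternatives from 135 to 1083 for D against M (598), 300 to 2367 for DB#2 against D (1310), 203 to 639 for J365 against M0 (303), 843 to 2901 for DB#2 against the mean of DB#1 and DB#3 (1519), 518 to 1201 for DB#1 (765), 452 to 1255 for DB#2 (720) and 398 to 866 for DB#3 (569) against M, 34 to 125 for DB#1 (96) and 11 to 118 for DB#3 (74) against D.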
